A study of Homo sapiens with 7 samples.

Results

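Of the 1844 H3K27me3 domains that Clone 3 and Clone 6 of the HCT116 shUHRF1 cells shared, 689 lay on chromosomes 1 to 22 and were at least 100 kb long. These long domains were selected on length alone, as end minus start, from the 1680 clone-shared domains of the same chromosomes. The other 991 were under 100 kb and are called short domains here. The long domains covered 240.8 Mb, which was 8.74% of the gap-free autosomal sequence. They made up 41.0% of the shared autosomal domains and 84.2% of their length, a share that the selection itself raised. A further 17 domains of at least 100 kb lay on chromosome X and were not counted.

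HCT116 is an established line of human colorectal carcinoma cells. Both clones carried a doxycycline-inducible shRNA against UHRF1, the ubiquitin ligase that cooperates with the maintenance methyltransferase DNMT1, and received no doxycycline for 14 days, so every value is from uninduced cells. Each clone is a single clonal expansion of this line. Chromatin immunoprecipitation was done with an antibody against H3K27me3 on 2 samples per clone and with one against H3K9me3 on 2 samples of Clone 3, beside 1 input of Clone 3, and Clone 6 contributes to H3K9me3 by way of the clone-shared set alone. The deposited domain sets merge the replicates. No spread between replicates, exact depth of a library or test between conditions was therefore available, and neighbouring domains of the same cells are not replicates, so differences are given as descriptions without a p-value.

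H3K27me3 is trimethylation of lysine 27 of histone H3. It is written by Polycomb repressive complex 2, whose core subunits are EZH2 or EZH1, EED and SUZ12, and EED binds the mark and helps to spread it over neighbouring nucleosomes. The mark is known for silencing developmental transcription factors and genes of other cell lineages, and the chromatin that carries it in broad blocks is called facultative heterochromatin. H3K9me3 marks constitutive heterochromatin, where HP1 proteins bind it.

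The longest domain was chr5:168715001-170610000 (hg38), with 1895 kb. It held the start sites of 9 protein-coding genes and the hairpins of MIR218-2 and MIR585. The promoters of 3 of these genes are shown because they are the base sequence that the longest block of the mark covered. Each is the 250 bases before the RefSeq start (GRCh38.p14), 5′ to 3′ on the strand of the gene, with every CpG in capitals. FOXI1, a forkhead transcription factor of ionocytes, has its promoter at chr5:170105647-170105896 on the plus strand. KCNIP1, a protein that binds voltage-gated potassium channels, has it at chr5:170353237-170353486 on the plus strand. SLIT3, a secreted guidance ligand of ROBO receptors, has it at chr5:169301140-169301389 on the minus strand. PAX3, a paired-box and homeobox factor of neural crest and muscle precursors, lay in a domain of 1140 kb and has its promoter at chr2:222298999-222299248 on the minus strand.
FOXI1: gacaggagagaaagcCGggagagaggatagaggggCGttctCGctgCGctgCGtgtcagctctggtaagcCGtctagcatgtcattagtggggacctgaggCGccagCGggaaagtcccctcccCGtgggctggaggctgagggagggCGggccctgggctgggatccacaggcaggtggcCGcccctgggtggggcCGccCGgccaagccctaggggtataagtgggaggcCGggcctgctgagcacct
KCNIP1: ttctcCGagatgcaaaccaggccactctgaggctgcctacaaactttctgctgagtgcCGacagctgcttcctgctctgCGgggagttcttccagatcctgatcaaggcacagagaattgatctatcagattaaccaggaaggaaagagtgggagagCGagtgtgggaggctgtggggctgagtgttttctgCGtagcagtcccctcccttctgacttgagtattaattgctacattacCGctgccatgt
SLIT3: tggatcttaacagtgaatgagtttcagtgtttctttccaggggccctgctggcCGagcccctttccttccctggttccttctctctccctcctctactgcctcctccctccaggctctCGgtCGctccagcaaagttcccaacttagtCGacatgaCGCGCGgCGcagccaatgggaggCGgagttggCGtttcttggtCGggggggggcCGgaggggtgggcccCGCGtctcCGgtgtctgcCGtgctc
PAX3: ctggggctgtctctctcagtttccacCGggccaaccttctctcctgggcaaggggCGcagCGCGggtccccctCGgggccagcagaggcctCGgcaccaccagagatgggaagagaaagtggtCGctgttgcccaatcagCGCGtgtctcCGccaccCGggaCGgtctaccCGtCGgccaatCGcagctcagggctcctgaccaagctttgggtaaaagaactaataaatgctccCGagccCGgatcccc

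The 4 promoters held 14, 6, 16 and 17 CpGs in the order printed. The median over the 300-base promoters (250 before and 50 after the start) of all 14616 matched autosomal protein-coding genes was 22. The printed stretches leave out the 50 bases after the start, so their counts cannot be set directly against this median. IVL encodes involucrin and LORICRIN encodes loricrin, both structural proteins of the cornified envelope of the skin, and OR10G3 encodes an odorant receptor. Their promoters lie at chr1:152908296-152908545 (plus strand), chr1:153259437-153259686 (plus strand) and chr14:21580077-21580326 (minus strand). These 3 were chosen after their values had been seen, as examples of the families with the highest shares in long domains. CpGs are in capitals, as is TATAAA, the core of the TATA box.
IVL: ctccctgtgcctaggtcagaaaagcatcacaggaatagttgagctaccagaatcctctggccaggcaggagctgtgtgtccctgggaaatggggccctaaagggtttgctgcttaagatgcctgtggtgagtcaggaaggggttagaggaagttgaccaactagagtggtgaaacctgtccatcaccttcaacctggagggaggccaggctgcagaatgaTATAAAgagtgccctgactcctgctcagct
LORICRIN: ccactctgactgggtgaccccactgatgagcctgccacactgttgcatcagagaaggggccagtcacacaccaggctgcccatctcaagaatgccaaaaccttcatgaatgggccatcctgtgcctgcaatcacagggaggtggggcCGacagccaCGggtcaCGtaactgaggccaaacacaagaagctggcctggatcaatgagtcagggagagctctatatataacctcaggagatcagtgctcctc
OR10G3: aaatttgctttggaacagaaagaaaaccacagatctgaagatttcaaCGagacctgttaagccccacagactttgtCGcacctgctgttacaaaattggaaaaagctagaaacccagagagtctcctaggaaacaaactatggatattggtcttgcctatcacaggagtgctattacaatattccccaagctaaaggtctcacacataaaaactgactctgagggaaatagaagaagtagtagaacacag

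IVL had 0 CpGs and 1 TATAAA in these 250 bases, LORICRIN had 3 CpGs and OR10G3 had 2. The centre of the domain with the lowest CpG density shows how sparse in CpGs the covered sequence could be. This domain was chr6:86060001-86190000 with 4.12 CpGs per kb. The 200 bases printed are chr6:86124901-86125100 on the plus strand of hg38, and they held 0 CpGs.
Centre of the domain with the lowest CpG density: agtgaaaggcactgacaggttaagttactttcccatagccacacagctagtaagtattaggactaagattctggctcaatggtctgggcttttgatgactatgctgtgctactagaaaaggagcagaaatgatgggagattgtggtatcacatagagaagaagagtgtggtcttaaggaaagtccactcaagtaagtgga

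The miRNA hairpins of the longest domain are shown with the seed (bases 2 to 8) in capitals. The hairpin of MIR218-2 lies at chr5:168768146-168768255 and that of MIR585 at chr5:169263601-169263694, and the mature sequences are from RefSeq.
hsa-miR-218-5p: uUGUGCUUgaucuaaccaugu
hsa-miR-218-2-3p: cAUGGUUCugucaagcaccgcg
hsa-miR-585-3p: uGGGCGUAucuguaugcua
hsa-miR-585-5p: cUAGCACAcagauacgcccaga

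The 4 mature miRNAs had 4 different seeds. Long domains held 56 of 1461 autosomal miRNA hairpins, or 3.83%, close to the 4.15% of protein-coding start sites that lay in them. In the domain of 103 kb that held MIR30A and MIR30C2, the mature miRNAs miR-30a-5p and miR-30c-5p shared their seed.
hsa-miR-30a-5p: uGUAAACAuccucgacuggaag
hsa-miR-30c-5p: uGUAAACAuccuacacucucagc

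Long domains had a median length of 254 kb, with quartiles of 152 and 441 kb. There were 252 domains from 100 to under 200 kb, 295 from 200 to under 500 kb, 113 from 500 kb to under 1 Mb and 29 of at least 1 Mb. The 29 domains of the longest class held 15.2% of the total length of the long domains, and the 252 of the shortest class held 14.5%. At the threshold, 5 domains measured exactly 100 kb, on chromosomes 2, 9, 12, 13 and 15, and had between 6.93 and 13.2 CpGs per kb. Of these, the domain on chromosome 15 held GJD2, a gap junction protein of neurons, and ACTC1, the cardiac actin. Just below the threshold were 4 domains of 99 kb on chromosomes 1, 7 and 16 and the next, of 98 kb, was on chromosome 8, and the 5 had 4.90 to 9.54 CpGs per kb. The threshold thus separated domains that did not stand apart in length.

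**Figure D1:**
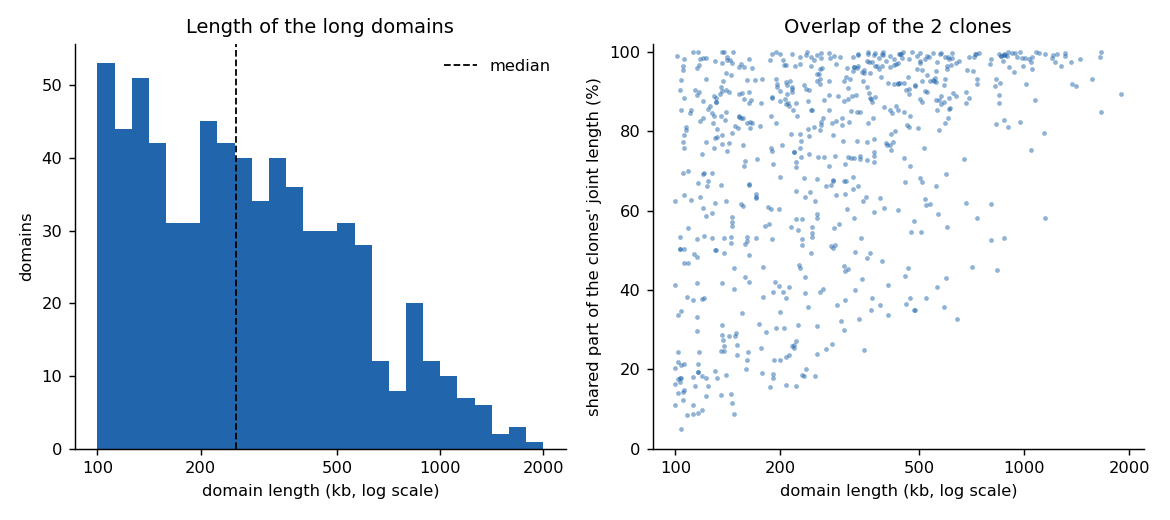
The left panel counts the 689 long domains by length (kb, log scale), with the median of 254 kb as a dashed line. The right panel plots for each domain (1 point) its length against the shared part of the length that its Clone 3 and Clone 6 domains span together (%). The shared part is at least 90% in 233 domains and under 50% in 152, and the length on the horizontal axis is also the numerator of this share, so a rise with length is partly built in.

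Each of the 1841 shared domains on chromosomes 1 to 22 and X was exactly the overlap of a Clone 3 domain with a Clone 6 domain. The long domains came from 669 Clone 3 and 640 Clone 6 domains. The shared part took up a median of 81.6% of the length that the 2 parents span together, with quartiles of 53.2% and 93.3%. For the short domains the median was 22%, which is no separate finding because a short overlap of long parents enters the short class by construction. In 233 long domains (33.8%) the shared part reached 90% or more, and in 152 (22.1%) it was under 50%. The shared length is also the length that defines the 4 length classes above, so the share is not compared between them.

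The edges of the 2 clones lay a median of 17 kb apart over 1378 edges, and 42.7% were within 10 kb. Both edges were within 10 kb in 127 domains (18.4%). Clone 6 reached farther out at 808 edges (58.6%), Clone 3 at 457 (33.2%), and 113 were identical. Among the named domains, Clone 6 edges fell only on even kb, and Clone 3 edges on even and odd kb. The clone sets may thus differ in resolution, and its part in the small offsets and in these counts was not tested. A Clone 3 domain was contained whole in 320 of the long domains (46.4%), and a Clone 6 domain in 128 (18.6%). The median length of the parents was 311 kb in Clone 3 and 364 kb in Clone 6. A single Clone 6 domain held 2 or more long domains in 47 cases, against 18 for Clone 3. For example, the 643 kb domain with TBX5, a T-box factor of heart and forelimb, and the 1144 kb domain after it on chromosome 12 came from the same Clone 6 domain of 1964 kb and from separate Clone 3 domains.

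The deposited clone sets carry 2 scores per domain from the domain caller, whose scale the sources do not define. The lowest of the 4 parent scores ran from 13.2 to 346 in long domains, with a median of 72.3. It followed length closely (Spearman's rho of 0.87 across 689 domains), so it is no independent measure of strength. The highest values were in chr8:21004001-21710000 (346), in the longest domain (309), in chr3:64035001-65342000 (303), and in the 2 domains of chromosome 12 with a common Clone 6 parent (301 each). For both of these it was the second Clone 3 score, with the identical value of 300.9375, so it may not be 2 separate scores.

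The base composition was not used to choose the domains. Long domains held 8.67 CpGs per kb, compared with 9.61 in short domains, 10.4 in flanks of the same length on either side and 10.1 across the autosomes. The flanks can include other H3K27me3 domains. GC content was 41.7% in long domains, 42.3% in short domains, 42.2% in the flanks and 41.0% across the autosomes. The CpG count relative to that expected from the GC content was 0.200 in long domains, 0.215 in short domains, 0.234 in the flanks and 0.241 across the autosomes. CpG density was thus lower in long domains than in their flanks while GC content was nearly the same. Per domain the density ran from 4.12 to 22.6 CpGs per kb with a median of 8.16 and quartiles of 6.88 and 10.0. The autosomal mean was not reached in 525 long domains (76.2%). For short domains the median was 8.37, with quartiles of 6.51 and 11.9, and 640 (64.6%) lay below that mean. The 2 medians thus lay closer together than the pooled densities.

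Low-density CpGs are those with at least 20 bp to the neighbouring CpG on both sides. They made up 61.0% of the 2088212 CpGs in long domains, 56.7% in short domains, 53.6% in the flanks and 52.7% across the autosomes. With length the share was 59.7%, 59.8%, 61.7% and 64.1% in the 4 length classes, from the shortest to the longest, and the CpG density was 8.87, 8.93, 8.63 and 7.92 per kb. Across single domains, however, Spearman's rho of length and CpG density was -0.01 (n = 689).

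The lower CpG density was present on most chromosomes. Long domains had fewer CpGs per kb than the whole chromosome on 21 of 22 chromosomes, chromosome 13 being the exception with 8.79 against 8.60. They had fewer than the short domains on 18 of 22, and the reverse held on chromosomes 3, 5, 6 and 20. The values ran from 7.40 on chromosome 3 to 12.2 on chromosome 22. The difference, long minus short, was -0.93 CpGs per kb over all and -0.14 in the upper 50% of the shared domains by lowest score, and the part of the score in this was not tested.

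**Figure D2:**
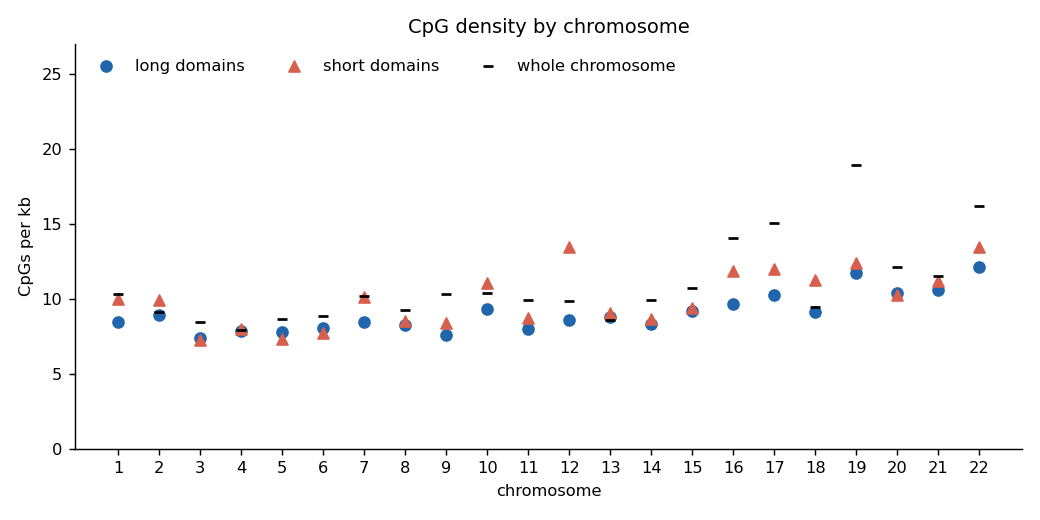
CpGs per kb (vertical axis, from 0) on each of the 22 autosomes, in long domains (circles), short domains (triangles) and the whole chromosome (dashes). Circles lie below the dash on 21 of 22 chromosomes, with the widest gap on chromosome 19 (11.7 against 18.9).

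The domain with the lowest CpG density, on chromosome 6, had no protein-coding start site, and 81.0% of its CpGs were low-density. The next 4 were on chromosomes 3 and 11 and had 4.87, 4.95, 4.97 and 5.15 CpGs per kb. The first 2 of these lay inside LSAMP, a neuronal adhesion protein, and CPNE4, a copine, and the last held FSHB, the beta subunit of follicle-stimulating hormone. At the other end, the domain with the highest density, on chromosome 22 with 22.6 CpGs per kb, held the start site of PHF21B, a PHD finger protein. It was followed by a domain inside CDH4, the cadherin of the retina, with 21.95 CpGs per kb, and a domain inside RBFOX3, the neuronal splicing factor NeuN, with 21.5. The remaining 2 of the top 5 were a domain on chromosome 1 with ACTRT2 (21.0) and one on chromosome 8 with MROH5 and C8orf90 (20.1). LSAMP and CDH4, both adhesion genes, thus hosted domains at opposite ends of the range.

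The edges of the 437 domains of at least 200 kb were profiled in bins of 10 kb over 874 edges. These are edges of the shared part, so bins outside can include sequence that the domain of a single clone still covered. Outside, over 200 kb, CpG density stayed between 10.1 and 10.8 per kb, and the bin next to the edge had the highest value. Inside, it was 9.72 in the first 10 kb and 8.78 at 90 to 100 kb. Protein-coding start sites lay at 5.84 to 8.83 per Mb outside and at 2.86 to 4.92 per Mb inside. In the last bin outside there were 74 start sites, and in the first bin inside there were 43. GC content ran from 42.1% to 42.5% outside and from 41.7% to 42.6% inside, so both sides overlapped in GC content and did not overlap in CpG density or in start sites.

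**Figure D3:**
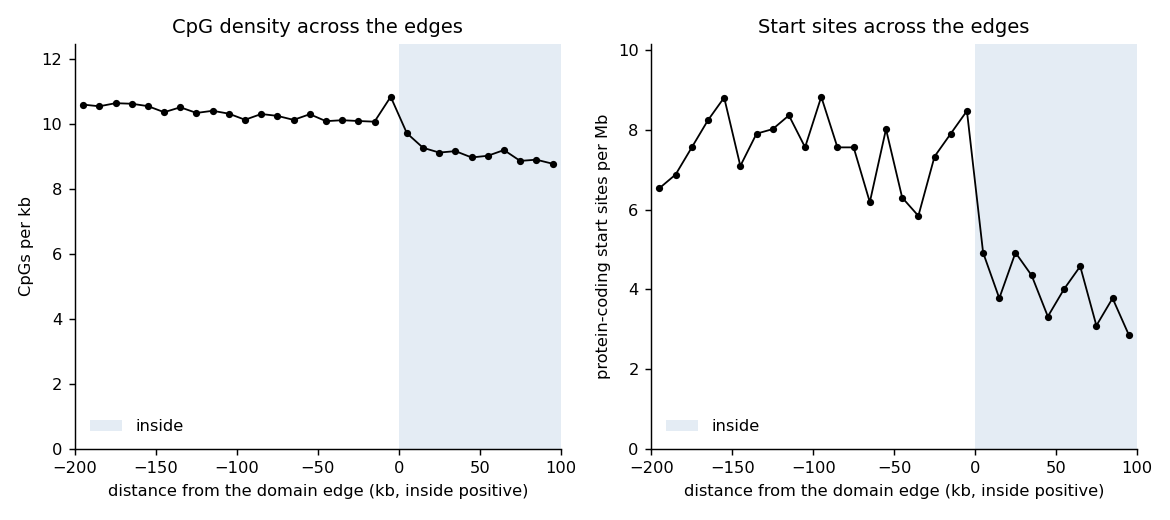
CpGs per kb (left) and protein-coding start sites per Mb (right) against the distance from the domain edge (kb), over 874 edges of 437 domains of at least 200 kb, in bins of 10 kb, with the inside shaded. Both step down at the edge, CpG density from 10.8 to 9.72 per kb and start sites from 8.47 to 4.92 per Mb. The edge is that of the shared part, so the outside can include sequence in the domain of a single clone.

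Protein-coding genes were sparse in the long domains. A long domain held the start site of 794 of 19111 autosomal protein-coding genes, or 4.15%, while long domains covered 8.74% of the sequence. The density was 3.30 start sites per Mb, compared with 5.06 in short domains and 6.93 across the autosomes. It was below that of the whole chromosome on 22 of 22 chromosomes, and below that of the short domains on 18. Chromosomes 5, 7, 8 and 16 were the exceptions to the latter. Long minus short, the difference was -1.76 start sites per Mb, and -3.14 with 50% reciprocal overlap of the parents. Start sites of long noncoding RNA genes were nearer to the autosomal value, with 5.57 per Mb against 6.67, and outnumbered protein-coding start sites 1.69 to 1 in long domains.

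The genes were unevenly spread over the domains. No protein-coding start site was present in 320 long domains (46.4%), 217 had 1, 130 had 2 to 4, and 22 had 5 or more. These 22 held 240 of the 794 start sites. No gene of any kind started in 63 long domains (9.14%). The density of start sites was 4.20, 3.52, 3.40 and 1.66 per Mb in the 4 length classes, from the shortest to the longest. Of the genes that started in a long domain, 614 (77.3%) lay in it over their whole length, and the median start site was 69.3 kb from the nearer edge. In addition, 218 genes reached into a long domain from a start site outside it.

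The 10 longest domains had 29 protein-coding start sites. The longest one had, in order, SLIT3, SPDL1, DOCK2, INSYN2B, FOXI1, C5orf58, LCP2, KCNIP1 and KCNMB1. DOCK2 and LCP2 act in leukocyte signalling, KCNMB1 is a beta subunit of calcium-activated potassium channels, and SPDL1 is a kinetochore protein of dividing cells. The start site of SPDL1 lay 869 kb from the nearer edge, deep in the domain. In Clone 3 this domain had the same ends as the shared one, and in Clone 6 it measured 2118 kb.

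The second longest, chr1:176264001-177924000 (1660 kb), held PAPPA2, a protease of insulin-like growth factor binding proteins, ASTN1, an adhesion protein of migrating neurons, and BRINP2. The shared part was 99.9% of the length spanned by its parents, the closest fit among the 10. It had 6.21 CpGs per kb, of which 69.2% were low-density. The third, chr5:58886001-60544000 (1658 kb), held PDE4D, a cAMP phosphodiesterase, as its only protein-coding start site, 21.9 kb from the edge and beside 3 long noncoding RNA genes. The fourth, chr1:56822001-58472000 (1650 kb), held C8A and C8B, which encode chains of complement component C8 made in liver. These 3 domains had 6.05 to 7.15 CpGs per kb, below the 8.67 of the long domains together.

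The fifth, chr15:91051001-92609000 (1558 kb), held SV2B, a synaptic vesicle protein, SLCO3A1, an organic anion transporter, and ST8SIA2, a polysialyltransferase of developing brain. In chr7:31000001-32442000 (1442 kb) were ADCYAP1R1, the receptor of the neuropeptide PACAP, NEUROD6, a neuronal transcription factor, ITPRID1, PPP1R17 and PDE1C. In chr5:136219001-137622000 (1403 kb) were TRPC7, a cation channel, and SPOCK1, a proteoglycan. RAB6C was the only protein-coding gene that started in chr2:128673001-130038000 (1365 kb), beside 11 long noncoding RNA genes. C11orf58 was the only one in chr11:15272001-16630000 (1358 kb), 16.9 kb from the edge and beside 8 long noncoding RNA genes. The tenth, chr3:64035001-65342000 (1307 kb), held PRICKLE2, a planar cell polarity protein, and ADAMTS9, a secreted protease. The shared part of the 10 longest ranged from 84.9% to 99.9% of the parents' joint length.

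**Figure D4:**
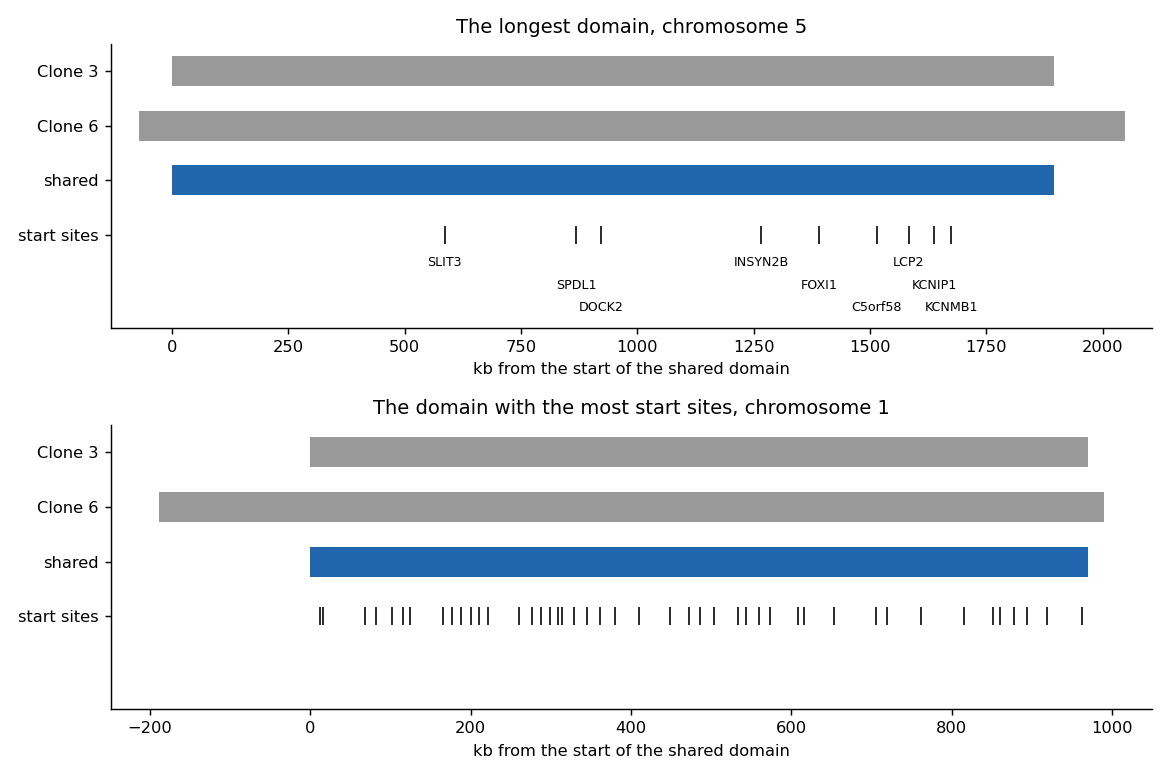
Extent of the Clone 3 and Clone 6 domains (grey), their shared part (blue) and the protein-coding start sites within it (ticks), in kb from the start of the shared domain. The longest domain (top) has 9 start sites over 1895 kb, and the domain with the most start sites (bottom) has 45 over 970 kb.

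The domain with the most start sites was chr1:152498001-153468000, with 45 in 970 kb. It spans most of the epidermal differentiation complex, from LCE5A to S100A7, with late cornified envelope genes, small proline-rich genes, IVL, LORICRIN and the S100A8 and S100A9 subunits of calprotectin. A second long domain of this region held FLG, FLG2 and CRNN. In total 42 of the 57 genes of the list (73.7%) started in a long domain, all 42 in 2 neighbouring domains, so this is a statement about a single locus. The background over all protein-coding genes was 4.15%, which would give 2.37 genes. Short domains held another 3 (5.26%), where 1.19% would give 0.68 genes.

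Olfactory receptor genes, which encode odorant receptors of the nasal epithelium and lie in clusters, had 121 of 414 start sites (29.2%) in 14 long domains, where the background of 4.15% would give 17.2 genes. Short domains held another 30 (7.25%), where 1.19% would give 4.94 genes. On chromosome 11 alone, 6 long domains held 85 of the 121. The largest group, 24 receptor genes, lay in chr11:123745001-124620000 beside TMEM225, VWA5A and PANX3. Next were chr11:4610001-5205000 with 21 receptor genes and MMP26, and chr11:5690001-6120000 with 17 and TRIM5, an antiviral restriction factor. In chr11:58054001-58524000 all 11 protein-coding start sites were of receptor genes. These 4 domains had 5.70 to 6.84 CpGs per kb. The longest domain with receptor genes, 973 kb on chromosome 14, held OR10G3, OR10G2, OR4E2 and OR4E1. The epidermal and olfactory genes together made up 163 of the 794 start sites (20.5%).

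Promoters in long and in short domains both held fewer CpGs than promoters in general. Of the 794 genes, 586 had a promoter of 300 bases in the RefSeq table. These held a median of 5 CpGs (quartiles 2 and 24), compared with 22 (quartiles 9 and 32) for all 14616 and 6 (quartiles 2 and 21.5) for the 175 in short domains. TATAAA, searched on both strands, was present in 126 of the 586 (21.5%), in 17.7% of those in short domains and in 9.72% of all promoters. Among the 39 matched epidermal genes in long domains, 23 (59.0%) had it and the median was 2 CpGs. For the 94 matched olfactory receptor genes, 33 (35.1%) had it and the median was 1 CpG. Outside long domains, 4 of 15 matched epidermal promoters (26.7%, median 5 CpGs) and 75 of 213 olfactory receptor promoters (35.2%, median 1 CpG) had it. Within lists, the median was lower in long domains than outside them in 8 of the 16 lists with a matched promoter there, equal in 3 and higher in 5. Promoters of the 10 matched homeobox genes in long domains held a median of 21 CpGs, against 23 for the others of that list. The 5 matched FOX, SOX, TBX and GATA promoters held 16 against 25, the 14 of potassium channel genes 11 against 21, and the 5 of CYP and UGT genes 1 against 4. In the other direction, the 5 of neural adhesion genes held 22 against 15.5 and the 4 of neurotransmitter-gated channels 17.5 against 11.5, and the other 3 such lists had 1 matched promoter each.

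Developmental transcription factors were present in several long domains. Homeobox genes outside the HOX clusters had 15 of 146 start sites (10.3%) in 13 long domains, with PAX3 in the longest (1140 kb). At the background of 4.15% the list would hold 6.07 genes. Short domains held 7 (4.79%), where 1.19% would give 1.74 genes. IRX5 and IRX6 shared a domain of 1045 kb on chromosome 16, and ZFHX3 lay in one of 876 kb on the same chromosome. The others were DRGX, PROX1, LMX1A, EMX2, DLX5, DLX6, TSHZ2, POU3F3, LHX5, OTX2 and DBX1. Of the FOX, SOX, TBX and GATA genes, 8 of 86 (9.30%) were in long domains, where the background of 4.15% would give 3.57 genes. The 8 were FOXI1, TBX5, FOXB1, FOXA2, SOX14, FOXI2, SOX21 and GATA4. Short domains held 0, where 1.19% would give 1.03 genes. FOXA2, a factor of endoderm, lay in a domain of 590 kb on chromosome 20. No start site of the 39 HOX genes or the 19 WNT ligand genes lay in a long domain, where the background of 4.15% would give 1.62 and 0.79 genes, so these counts are near the background.

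Genes of potassium channel subunits and their partners had 16 of 93 start sites (17.2%) in 10 long domains, where the background of 4.15% would give 3.86 genes. Short domains held 0, where 1.19% would give 1.11 genes. After KCNIP1 and KCNMB1, the longest domains were those of KCNH1 (726 kb) and KCNQ5 (606 kb). KCNA1, KCNA5 and KCNA6 shared a domain of 412 kb on chromosome 12, and KCNA2, KCNA3 and KCNA10 shared one of 388 kb on chromosome 1. Both are clusters of voltage-gated Shaker-type channels. Neurotransmitter-gated channels had 4 of 57 (7.02%), namely GRIK3, GRIA1, GLRA1 and GRIN3A. Neural adhesion genes with long bodies had 5 of 55 (9.09%), with SLIT3, CSMD2, NRXN3 and CNTN2 in the longest domains. There was 1 of 12 type II cadherin genes (CDH20) and 1 of 8 delta protocadherin genes (PCDH8), and 0 of 53 clustered protocadherin genes started in a long domain. At 4.15%, these 5 lists would hold 2.37, 2.29, 0.50, 0.33 and 2.20 genes, so their counts are small differences from the background.

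**Figure D5:**
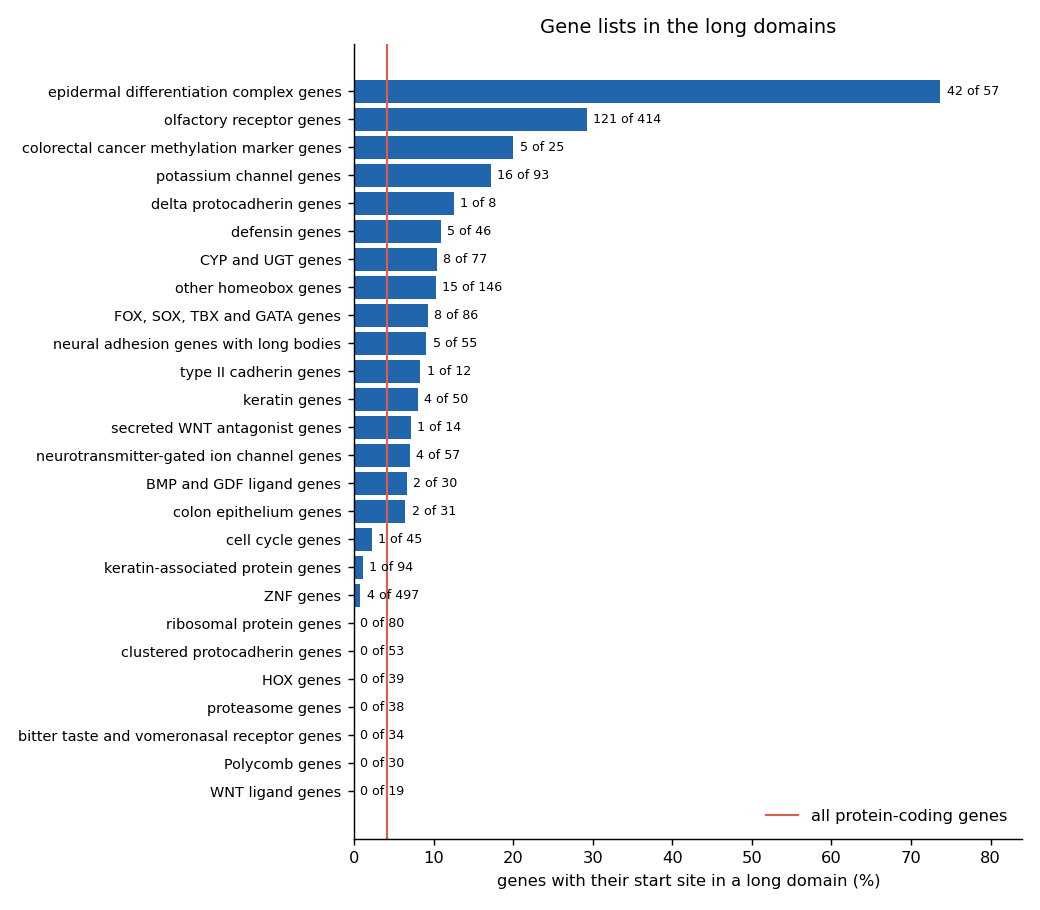
Share of the genes of each of 26 lists whose start site lay in a long domain (%), with the count beside each bar and the value for all protein-coding genes (4.15%) as a vertical line. Epidermal differentiation complex genes reach 73.7% and olfactory receptor genes 29.2%, and 7 lists are at 0.

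Other lists of genes of differentiated tissues held few members, beside a background of 4.15%. Genes of CYP and UGT enzymes had 8 of 77 (10.4%), with UGT3A1 in a domain of 343 kb and CYP2A7, CYP2B6 and CYP2A13 in 1 domain of 247 kb on chromosome 19. Defensin genes had 5 of 46 (10.9%), namely DEFB1, DEFA6 and DEFA4 in 1 domain and DEFA3 and DEFA5 in another. Keratin genes had 4 of 50 (8.00%), namely KRT2, KRT1, KRT77 and KRT76, in 1 domain of 170 kb. Keratin-associated protein genes had 1 of 94 (KRTAP19-8), and bitter taste and vomeronasal receptor genes had 0 of 34. The background would give 3.20, 1.91, 2.08, 3.91 and 1.41 genes for these 5 lists in this order. Short domains held 3 CYP and UGT genes (3.90%) and 3 defensin genes (6.52%), where 1.19% would give 0.92 and 0.55. They held 0 genes of the keratin, keratin-associated protein and taste and vomeronasal lists, where 1.19% would give 0.60, 1.12 and 0.41.

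Genes whose promoter methylation serves as a marker of colorectal cancer had 5 of 25 (20.0%) in 5 long domains, where the background of 4.15% would give 1.04 genes. SDC2, a syndecan, lay in a domain of 1210 kb and PENK, the precursor of enkephalins, in one of 524 kb. BMP3 (219 kb), TAC1 (161 kb) and GATA4 (140 kb) were the others. Short domains held 1 gene of this list (4%), where 1.19% would give 0.30 genes. The list has 25 genes, so 1 gene moves the share by several percentage points. Among secreted WNT antagonists, APCDD1 was in a long domain (1 of 14), and SFRP1, which the study used as a methylation locus, was in a short domain of 40 kb. UHRF1, DNMT1, STC2 and RPL30 lay in neither, and the nearest long domain was 3942 kb from UHRF1 and 1226 kb from DNMT1. BMP and GDF ligands and their antagonists had 2 of 30, GDF6 and BMP3. The background would give 0.58 of the 14 WNT antagonists and 1.25 of these 30.

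Lists of genes that most dividing cells use held 1 gene in all. Ribosomal protein genes had 0 of 80, proteasome genes 0 of 38 and Polycomb genes 0 of 30, where the background of 4.15% would give 3.32, 1.58 and 1.25. Cell cycle genes had 1 of 45, CCND2, a D-type cyclin, in a domain of 502 kb, where the background would give 1.87. Most of these counts lie near the background. ZNF genes had 4 of 497 (0.80%, where the background would give 20.6), namely ZNF831, ZNF536, ZNF334 and ZNF521. Of 31 genes of colon epithelium, the tissue of origin of the line, 2 started in a long domain, CEACAM5 and CEACAM6, adhesion proteins of the epithelial surface, in a domain of 111 kb on chromosome 19, where the background would give 1.29. Expression was not measured in these files, so the cell type of the line could not be checked against its transcripts.

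Some long domains lay within a gene. In 72 (10.4%) the whole domain was inside a protein-coding gene, from 62 genes. The longest were in ANKS1B (1223 kb), SDK1 (800 kb), RORA (693 kb) and TENM4 (565 kb). SDK1 and TENM4 are adhesion proteins of synapses, RORA is a nuclear receptor and ANKS1B a postsynaptic protein. LRMDA held 3 long domains, and 8 genes (TENM2, TENM3, DLG2, LSAMP, CPNE4, CLVS1, COL25A1 and MAGI2) held 2 each. For short domains the share inside a gene was 22.7%, which depends on length because a shorter stretch can be contained in more genes.

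The H3K9me3 domains shared by the clones took up a smaller share of the long H3K27me3 domains than of the autosomes. There was overlap in 12 long domains (1.74%) and over 1.99 Mb, which was 0.83% of their length. The H3K9me3 set covered 12.7% of the gap-free autosomal sequence. Of the short domains, 8 (0.81%) overlapped it, over 1.05% of their length. The 483 kb domain at chr22:47992001-48475000 and the 229 kb domain at chr15:53198001-53427000 lay wholly in H3K9me3. In chr16:12820001-13903000, with SHISA9, the overlap was 406 kb, and in chr9:16348001-16834000 it was 394 kb. The other 8 overlapped by 3 to 181 kb. No long domain had a separate H3K9me3 domain within 100 kb on each side.

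In all, 87 long domains (12.6%) overlapped or lay within 100 kb of a shared H3K9me3 domain, the 12 overlapping ones included, compared with 46 short domains (4.64%). By length, 2.53% of the sequence of long domains and 3.49% of that of short domains was in or within 100 kb of H3K9me3, against 14.9% of the autosomes. The median distance was 1507 kb for long and 2206 kb for short domains. The share was 15.1%, 13.6%, 6.19% and 6.90% in the 4 length classes, the last from 2 of 29 domains, so it did not rise with length. By chromosome it was higher in long than in short domains on 15 of 22 and equal on 2. It was highest on chromosomes 21 (57.1%, of 7 domains), 15 (34.8%) and 20 (34.4%), and chromosome 6 had none.

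Long domains were spread unevenly over the chromosomes. They covered 16.0% of chromosome 16, 13.6% of chromosome 10, 13.4% of chromosome 8 and 13.2% of chromosome 20. At the low end were chromosome 4 with 3.48% and chromosome 21 with 3.91%. Long domains lay farther from other shared domains than short ones did. The nearest shared domain of any length was a median of 75 kb away, and 138 long domains (20.0%) had one within 10 kb. For short domains the median was 14 kb, and 440 (44.4%) had one within 10 kb.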

How the data were processed

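Per the study's methods, the authors trimmed read pairs with Trim Galore 0.5.0, aligned them to hg38 with Bowtie2 2.3.5, removed duplicates and called broad domains with Enriched Domain Detector at default settings. The deposited sets hold domains found in both replicates of a clone, and the clone-shared sets those found in both clones. Starts and ends are whole kb, and starts were written 1-based here. The deposited clone sets also give 2 values per domain, scores of the caller in a unit that the sources do not define. The exact depth of each library cannot be read from domain sets, and the study's methods state only a minimum.

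Long domains were the shared H3K27me3 domains of at least 100 kb on chromosomes 1 to 22, compared with the shorter ones, with flanks of equal length and with the autosomes. CpGs were counted on hg38. Genes came from GENCODE 44, by start site. Promoters and miRNAs came from RefSeq (GRCh38.p14). The parent of a domain is the clone domain that contains it, and the joint length runs from the first to the last base of both parents. Named domains were the 10 longest, the 5 with the most start sites, the 5 of highest and the 5 of lowest CpG density, the 5 of highest score and the 5 on each side of the threshold. Named genes were those that start in the 10 longest and up to 4 per list, and other genes were named after their values had been seen. The members and the gene lists were chosen with earlier results of these data known. Alternatives changed the minimum length, the joining of neighbours, the chromosomes, the scores, the overlap of the clones, the CpG spacing, the gene definition and the distance to H3K9me3. The counting procedures were tested on simulated data. Scripts used Python 3.11.15 (pandas 2.3.3, numpy 2.4.6 and scipy 1.17.1), and figures were drawn with matplotlib 3.10.9.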

Additional observations from a re-analysis of the deposited data

How the results depend on the processing

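No paired analysis was possible because the deposited sets merge the replicates of each clone, and for the same reason no replicate could be left out. The intervals against which a value was compared cover counting error only. The direction of both differences between long and short domains held under all alternatives tried. The number of long domains was 437 at a minimum of 200 kb and 1069 at 50 kb. The median shared part of the clones' joint length was 87.3% at 200 kb, 68.3% at 50 kb and 87.7% with 50% reciprocal overlap of the parents, and joining neighbours gives no value for it. CpGs per kb in long minus short domains were -0.64 at 200 kb, -1.12 at 50 kb, -1.33 with domains under 10 kb apart joined, -0.73 with chromosome X, -0.14 in the upper 50% by score and -0.87 with reciprocal overlap. Low-density CpGs were 61.2% of CpGs at 200 kb, 60.6% at 50 kb, 61.1% without chromosome 19, 61.1% in the upper 50% by score and 44.5% at a spacing of 35 bp, where the stricter definition admits fewer CpGs. The share of protein-coding genes was 3.39% at 200 kb, 4.87% at 50 kb, 3.73% with reciprocal overlap, 5.30% by gene body and, chosen after seeing the data, 3.51% without the 5 domains with the most start sites. Start sites per Mb in long minus short domains were -3.14 with reciprocal overlap and -5.11 for genes of all kinds. The share near H3K9me3 was 5.81% when the distance was set to 50 kb and 23.2% when it was set to 200 kb. The cause of these shifts was not tested, except where the definition itself sets it. Altogether 63 of 88 recomputed values stayed within their interval or within 1.5 times the count. The epidermal, olfactory receptor, potassium channel and homeobox lists kept 8 of 8 each. Some alternatives could not move a list. For the epidermal genes on chromosome 1, adding chromosome X or leaving out chromosome 19 left the share at 73.7%. The CpG difference kept 1 of 7, low-density CpGs 3 of 8, the shared part 3 of 6 and the share of genes 4 of 9. The number of domains kept 5 of 7, the start-site difference 7 of 9 and nearness to H3K9me3 8 of 10.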
